A study of Mus musculus with 23 samples.

Results

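Solute carriers are membrane proteins that move amino acids, sugars, ions, metals, vitamins and nucleotides across membranes, and their gene symbols begin with Slc. Of the 24506 rows of the deposited expression table, 371 carried a numbered Slc symbol, 3 of these were set apart and are not reported, and 142 of the remaining 368 reached 5 FPKM (fragments per kilobase of transcript, scaled to the mapped fragments of the library) in at least 2 of 23 libraries. These 142 members comprised 30 genes of the Slc25 family, out of 47 Slc25 rows, and 112 other solute carriers. The 226 rows that did not reach the level included 97 with at least 1 FPKM in 2 or more libraries and 12 at 0 throughout. The members were chosen by their FPKM in these libraries, so counts over them describe these genes and are not evidence on solute carriers as a class. Of the 142, 50 reached 5 FPKM in libraries of every group and 40 did so in every library, whereas 13 reached it in libraries of 1 group only. By the second highest value over all libraries, the members just inside the limit were Slc44a3 at 5.03, Slc25a40 at 5.07 and Slc5a12 at 5.11 FPKM, and the genes just outside were Slc7a8 at 4.98, Slc25a10 at 4.95 and Slc2a10 at 4.93 FPKM.

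The libraries were RNA-seq profiles of mouse oocytes at the germinal vesicle (GV) stage, of zygotes and of 2-cell embryos, with or without Cxxc1, which encodes CFP1, a CpG-binding subunit of the histone H3K4 methyltransferase complex. Deletion groups carried Cxxc1 fl/fl alleles with a Cre transgene expressed in oocytes. Zp3-Cre GV oocytes came from 3-week-old females and Gdf9-Cre GV oocytes from 3-month-old females, each beside wild-type GV oocytes of the same age. Zp3-Cre zygotes and 2-cell embryos had deletion mothers and wild-type fathers, and the wild-type embryos had wild-type parents of both sexes. Each group had 3 libraries except wild-type 2-cell embryos, which had 2. Zp3-Cre acts in growing oocytes and Gdf9-Cre earlier in follicle development, so driver and female age change together between the GV oocyte models and cannot be told apart. How old the embryos' mothers were is not stated in the labels, and embryos of deletion mothers could inherit a wild-type paternal allele.

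Cxxc1 itself lay between 0.626 and 4.16 FPKM in the libraries of the 4 deletion groups and between 9.94 and 41.5 FPKM in wild-type libraries, with no overlap within any stage. The 10 oocyte markers summed to 9014 to 9723 FPKM in 3-week deletion oocytes and 11640 to 11808 FPKM in their controls. At 3 months they summed to 9272 to 9612 FPKM in the deletion and 10938 to 11092 FPKM in wild type. Zygotes had the reverse order, at 7385 to 8472 FPKM in the deletion and 5072 to 5900 FPKM in wild type. There 8 of the 10 were called higher and 1 lower, beside 35.3% and 11.4% of all tested genes. Replicate 3 of the Zp3-Cre 2-cell embryos stood apart from its group, with correlations across genes of 0.942 and 0.936 with the other libraries, against 0.983 between those. Its 6 stromal markers summed to 135 FPKM, and its Cyp11a1, a steroidogenic enzyme of ovarian somatic cells, was at 82.3 FPKM. Of the members, 8 of 112 and 3 of 30 Slc25 genes were at least 2-fold higher there than in the other libraries of the group. The share of all tested genes is not given, so these counts do not set the members against other genes. Gdf9-Cre GV oocytes had 8 of 13 tested granulosa markers called higher and 0 lower, beside 34.2% of all tested genes higher. Summed levels were 182 to 266 FPKM against 140 to 148 FPKM in wild-type 3-month oocytes, with Serpine2 the largest single value in both. The marker Inha had 63.3, 33.6 and 24 FPKM against 2.23, 3.79 and 4.01 FPKM. In wild-type 3-week oocytes Inha had 22.6, 15 and 17.8 FPKM, and 1 of the 13 markers was called lower at 3 months than at 3 weeks. The part of these markers in the results was not tested.

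In the ovary and the early embryo, solute carriers supply the oocyte with amino acids, pyruvate, zinc and osmolytes. Amino acid carriers such as the glycine transporter Slc6a9 also accumulate organic osmolytes that set cell volume, and the Slc4 bicarbonate carriers take part in setting cytosolic pH. Carriers of the Slc25 family sit mostly in the inner mitochondrial membrane and exchange nucleotides, phosphate and metabolites with the cytosol.

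With Cxxc1 deleted, solute carrier transcripts were both higher and lower at every stage. A gene was called where its adjusted p in a limma model of log2(FPKM + 1) over all 13776 tested genes was below 0.05. In 3-week GV oocytes 20 members were higher and 30 lower in the deletion, or 35.2% called, beside 29.6% of all tested genes (18.3% higher, 11.3% lower) and 34.3% of the 9690 genes that pass the same level limit (20.8% higher, 13.5% lower). In 3-month GV oocytes 44 were higher and 27 lower, or 50% called, beside 49.5% of all tested genes (34.2% and 15.2%) and 54.4% of genes at the level limit (36% and 18.3%). In zygotes 57 were higher and 22 lower, or 55.6%, beside 46.7% of all tested genes (35.3% and 11.4%) and 58.1% at the level limit (43.6% and 14.6%). In 2-cell embryos 57 were higher and 38 lower, or 66.9%, beside 66.5% of all tested genes (37.1% and 29.4%) and 74.9% at the level limit (44.3% and 30.6%). The members through wild-type 2-cell embryos alone had to be lower here, and over the 129 that reached 5 FPKM in 2 or more groups the counts were 56 and 28. Slc39a8 was a member through wild-type 3-week oocytes alone, and Slc37a4 and Slc44a3 through Gdf9-Cre oocytes alone. Over the same 129 the counts were 17 and 29 in 3-week oocytes, 38 and 27 in 3-month oocytes, and 55 and 22 in zygotes. The 129 still held members such as Slc39a5 and Slc1a1, which reached 5 FPKM in deletion but not in wild-type 3-week oocytes. Their counts are thus not free of the selection. The members' shares called thus lay near or below those of genes at the same level. The members' median log2 fold changes were 0.03, 0.10, 0.19 and 0.31, and those of all tested genes were 0.09, 0.20, 0.22 and 0.16.

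The balance of higher and lower calls depended on how libraries were scaled. Median-of-ratios scaling moved the median log2 fold change of all genes by -0.08, -0.17, -0.26 and -0.19 in 3-week oocytes, 3-month oocytes, zygotes and 2-cell embryos, and quantile normalization moved it by -0.09, -0.22, -0.29 and 0.02. Among the 112 members outside the Slc25 family, the deposited values gave 17 higher and 27 lower in 3-week oocytes, and both alternatives gave 11 higher, with 30 or 27 lower. In 3-month oocytes 30 were higher and 25 lower, against 16 and 39 or 19 and 40 under the alternatives. In zygotes 47 were higher and 18 lower, against 26 and 43 or 24 and 32. In 2-cell embryos 44 were higher and 28 lower, against 34 and 37 or 54 and 29. Of all 13776 tested genes, the deposited values called 2524 higher and 1557 lower, 4718 and 2100, 4860 and 1571, and 5112 and 4047 in this order. Median-of-ratios scaling called 1547 and 1863, 2897 and 3105, 2804 and 4020, and 4152 and 4867. Quantile normalization called 1741 and 1872, 2822 and 3236, 2817 and 3498, and 5207 and 4079. Directions of the family as a whole are therefore not given below, while the 138 changes of named genes that were recomputed all kept their sign under both scalings.

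**Figure D1:**
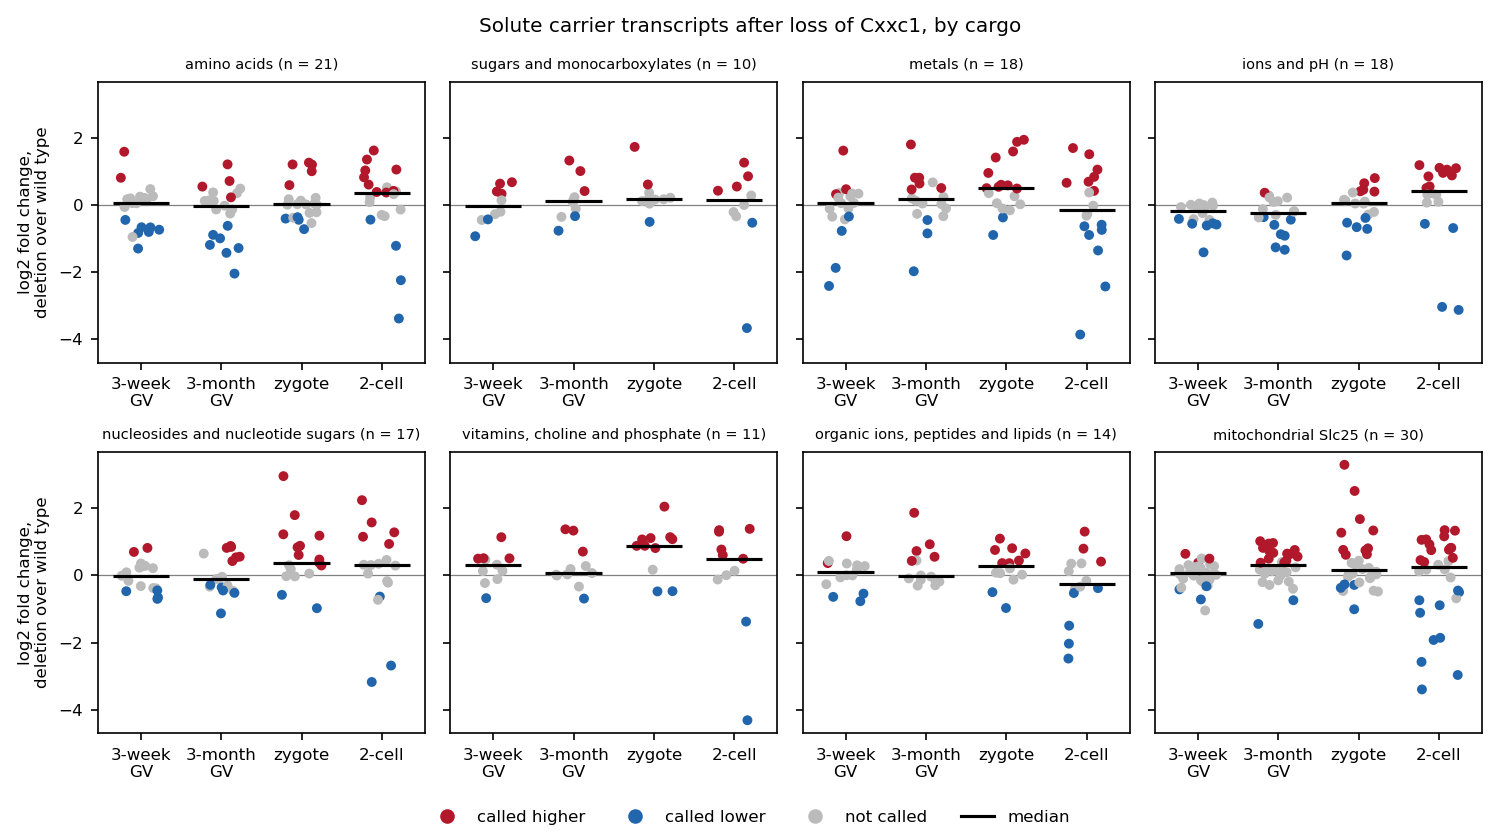
Log2 fold change on the log2(FPKM + 1) scale, deletion over wild type, for members by cargo class (y axis, panel titles give n; the 3 members that are no transporters by name are left out) in the 3-week GV, 3-month GV, zygote and 2-cell comparisons (x axis). Red points were called higher, blue points lower and grey points were not called, and black lines are class medians. Classes follow family numbers, so the cargo of a member can differ, as for Slc5a6 and Slc16a10 among sugars and monocarboxylates. In ions and pH, 6 of 18 members were lower and 0 higher in 3-week GV oocytes, and the deepest 2-cell points are Slc19a3, Slc39a4 and Slc5a6.

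Few members moved the same way throughout. Those called higher in all 4 deletion comparisons were Slc25a4, Slc39a5, Slc41a1 and Slc44a3, and those called lower in all 4 were Slc25a16, Slc26a9 and Slc6a7. Slc44a3 reached 5 FPKM in Gdf9-Cre oocytes alone, so its 3-month value, and with it its place here, is a description. Slc39a5 reached 5 FPKM among GV oocytes in deletion libraries alone, so its GV calls and its place here are a description too. Under both other scalings Slc41a1 was not called in zygotes and Slc44a3 not in 3-week oocytes, and median-of-ratios scaling also ended the Slc41a1 calls in 3-month oocytes and 2-cell embryos, while the other members named kept their 4 calls. All 4 comparisons had 2.82% of members higher and 2.11% lower, beside 6.21% and 1.53% of all tested genes. Another 8 members (5.63%) were called in none, beside 12.2% of all tested genes and 5.75% at the level limit. In both GV models 14 members (9.86%) were higher and 21 (14.8%) lower, beside 15.5% and 8.26% of all tested genes and 17.8% and 10.3% at the level limit. Median-of-ratios scaling gave 8 and 27 members, beside 8.58% and 11.3% of all tested genes, and quantile normalization gave 10 and 25, beside 9.67% and 11.4%. Slc25a51 was called in opposite directions, its 3-month call being absent under both other scalings. The 4 deletion comparisons share no libraries.

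CFP1 binds unmethylated CpG, so the 250 bases before the annotated start of members called in the same direction in all 4 comparisons are shown with every CG in capitals. They are taken from RefSeq on build GRCm38.p6, and for Slc39a5, which has 2 windows, the more upstream is shown. Slc6a7 is named only.
Slc26a9, chr1:131743772-131744021, plus strand: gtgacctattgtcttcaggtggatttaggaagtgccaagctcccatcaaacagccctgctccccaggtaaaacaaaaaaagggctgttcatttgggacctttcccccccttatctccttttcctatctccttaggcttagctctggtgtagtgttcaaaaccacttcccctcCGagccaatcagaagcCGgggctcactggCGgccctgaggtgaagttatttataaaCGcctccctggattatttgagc
Slc25a16, chr10:62920383-62920632, plus strand: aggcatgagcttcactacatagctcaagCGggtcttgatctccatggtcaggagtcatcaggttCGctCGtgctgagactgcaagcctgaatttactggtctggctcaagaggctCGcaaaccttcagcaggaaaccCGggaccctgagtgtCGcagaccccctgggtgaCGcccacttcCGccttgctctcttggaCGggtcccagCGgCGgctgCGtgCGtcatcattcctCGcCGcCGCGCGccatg
Slc25a4, chr8:46211063-46211312, minus strand: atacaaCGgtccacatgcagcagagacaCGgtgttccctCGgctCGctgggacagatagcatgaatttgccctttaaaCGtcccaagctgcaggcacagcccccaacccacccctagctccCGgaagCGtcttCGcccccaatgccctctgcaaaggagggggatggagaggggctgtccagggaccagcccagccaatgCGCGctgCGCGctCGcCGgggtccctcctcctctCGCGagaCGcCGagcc
Slc39a5, chr10:128401225-128401474, minus strand: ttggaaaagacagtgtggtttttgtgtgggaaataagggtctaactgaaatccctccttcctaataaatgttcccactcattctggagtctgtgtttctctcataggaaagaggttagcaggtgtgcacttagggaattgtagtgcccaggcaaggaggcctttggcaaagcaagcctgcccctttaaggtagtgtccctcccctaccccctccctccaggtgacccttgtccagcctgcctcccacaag
Slc41a1, chr1:131827762-131828011, plus strand: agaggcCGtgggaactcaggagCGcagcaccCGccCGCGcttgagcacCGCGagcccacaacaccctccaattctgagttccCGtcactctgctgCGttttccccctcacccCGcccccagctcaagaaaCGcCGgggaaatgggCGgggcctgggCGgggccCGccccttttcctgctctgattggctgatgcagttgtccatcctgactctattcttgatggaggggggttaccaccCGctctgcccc
Slc44a3, chr3:121532345-121532594, minus strand: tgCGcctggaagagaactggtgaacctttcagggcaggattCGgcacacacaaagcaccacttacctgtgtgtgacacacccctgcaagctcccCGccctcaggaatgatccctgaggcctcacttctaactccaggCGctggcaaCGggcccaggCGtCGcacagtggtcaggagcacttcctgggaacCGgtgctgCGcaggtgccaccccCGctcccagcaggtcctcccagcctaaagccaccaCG
The dinucleotide CG, which reads the same on both strands, occurred 4 times in the Slc26a9 stretch, 18 times in those of Slc25a16 and Slc25a4, 16 times in that of Slc41a1, 11 times in that of Slc44a3 and 0 times in that of Slc39a5. The Slc39a5 window not shown held 3 CG, counted from 250 bases before its start to 50 after. Windows were found for 113 of 142 members, below the 80% needed, so a CG comparison over the members is void.

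The amino acid carriers had 7 of 21 members lower and 2 higher in 3-week deletion oocytes, and 7 lower and 4 higher in 3-month deletion oocytes, beside 11.3% lower and 18.3% higher, and 15.2% lower and 34.2% higher, of all tested genes. Both other scalings gave 7 lower and 2 higher at 3 weeks, and 8 lower with 3 or 2 higher at 3 months. Under these scalings more of all tested genes were lower too, 3105 or 3236 at 3 months against 2100 with the deposited values. Slc6a20b, a proline and betaine carrier of oocytes and zygotes, had 2.58, 2.69 and 2.1 FPKM in 3-week Zp3-Cre oocytes, against 7.12, 7.88 and 7.46 FPKM in wild type. In 3-month Gdf9-Cre oocytes it had 2.5, 2.39 and 2.97 FPKM, against 8.39, 7.95 and 7.08 FPKM in wild type. Every deletion library lay below every wild-type library, with log2 fold changes of -1.30 ± 0.14 and -1.28 ± 0.14 (SE, n = 3 each) and adjusted p of 1.19e-06 and 4.59e-07. Its near-identical neighbour Slc6a20a also fell, by 0.66 and 0.62 on the log2 scale, and reads may be split between the pair in an unknown way.

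The cystine-glutamate exchanger Slc7a11 had 15.1, 14.1 and 15.6 FPKM in 3-week deletion oocytes against 26.9, 26.3 and 27.2 FPKM in wild type. In 3-month deletion oocytes it had 13.9, 14.1 and 13.5 FPKM against 32.8, 33 and 32.6 FPKM. The groups were far apart in both models, with log2 fold changes of -0.80 ± 0.15 and -1.19 ± 0.15 (SE; adjusted p = 0.000492 and 3.21e-06). In 2-cell embryos the order was the opposite, with 7.62, 5.92 and 11.2 FPKM in the deletion and 1.78 and 2.06 FPKM in wild type (log2 fold change 1.62, adjusted p = 5.73e-08).

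The proline carrier Slc6a7 had 31.8, 33.4 and 27.3 FPKM in 3-week deletion oocytes against 50.2, 52.7 and 52.8 FPKM in wild type. Its log2 fold changes were -0.74, -0.89, -0.37 and -0.44 in 3-week oocytes, 3-month oocytes, zygotes and 2-cell embryos. The groups overlapped in none of the 4. The taurine carrier Slc6a6 had 4.66, 4.71 and 5.01 FPKM in 3-month deletion oocytes against 15.8, 13.7 and 14.3 FPKM in wild type, and 22.6, 21.3 and 21.6 FPKM in deletion zygotes against 37.6, 34.1 and 38.5 FPKM. The glutamine carrier family member Slc38a8 had 6.29, 6.21 and 6.92 FPKM in 3-week deletion oocytes against 12.8, 11 and 13.2 FPKM in wild type. Each of these groups was separate. The cationic amino acid carrier Slc7a2 had 4.4, 4.49 and 5.41 FPKM in 3-month deletion oocytes against 23.3, 23 and 21.9 FPKM in wild type (log2 fold change -2.05, adjusted p = 0.0007), the deepest fall of an amino acid carrier there. At 3 weeks its deletion libraries scattered, at 12.7, 13.4 and 3.23 FPKM, against 16.8, 18 and 17 FPKM in wild type, and it was not called (adjusted p = 0.11).

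Slc7a5, the light chain of the large neutral amino acid exchanger, went the other way. It had 46.4, 40.7 and 47.6 FPKM in 3-week deletion oocytes against 28.1, 23.2 and 24.4 FPKM in wild type, and 61.2, 63.7 and 71.7 FPKM in 3-month deletion oocytes against 28.9, 26.9 and 27.4 FPKM. Deletion zygotes had 36.3, 34.1 and 37.5 FPKM against 17.4, 18.8 and 16.2 FPKM. Deletion 2-cell embryos were on the low side, with 15.2, 15.4 and 18.6 FPKM against 44.6 and 34.6 FPKM in wild type. The log2 fold changes were 0.81, 1.21, 1.01 and -1.22, each with SE 0.11 or 0.12 and adjusted p at or below 1.34e-05, and the 2-cell effect differed from the zygote effect by -2.22 (adjusted p = 7.65e-10). Its heavy chain partner Slc3a2 was called higher in 3-month deletion oocytes and deletion 2-cell embryos (log2 fold changes 0.55 and 0.37) but not in 3-week oocytes (0.17, adjusted p = 0.171) or zygotes (0.02, adjusted p = 0.894).

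The glutamate carrier Slc1a1 had 9.8, 9.77 and 4.96 FPKM in 3-week deletion oocytes against 2.2, 1.84 and 1.83 FPKM in wild type (log2 fold change 1.59 ± 0.2 SE, adjusted p = 1.15e-05). In zygotes it had 8.88, 9.5 and 9.56 FPKM in the deletion against 2.95, 3.8 and 3.19 FPKM, again with no overlap. In these 3-week oocytes and zygotes only deletion libraries reached 5 FPKM. Its place among the members may follow from them, so these rises are a description. In 3-month oocytes the change of 0.49 was not called (adjusted p = 0.0548). Slc6a9, the most abundant amino acid carrier in GV oocytes, had 197, 177 and 208 FPKM in 3-week deletion oocytes against 185, 182 and 192 FPKM in wild type, which overlapped. It was higher by 0.23 in 3-month deletion oocytes (adjusted p = 0.0381). It stood at 42.9, 44 and 39.6 FPKM in deletion zygotes against 41.4, 38.5 and 45.4 FPKM. In 2-cell embryos it had 73.7, 72.8 and 75.8 FPKM in the deletion against 31.7 and 38.9 FPKM (log2 fold change 1.05, adjusted p = 1.2e-08). Slc7a1, a cationic amino acid carrier, was higher in deletion zygotes and 2-cell embryos by 0.59 and 1.35 on the log2 scale. The proton-coupled carrier Slc36a1 was lower in deletion zygotes, with a log2 fold change of -0.44 (adjusted p = 0.0211).

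Among 18 metal carriers, zinc transporters gave the most divergent pairs. Slc39a5, a zinc importer, had 5.2, 3.22 and 5.52 FPKM in 3-week deletion oocytes against 0.742, 1.01 and 0.684 FPKM in wild type. Its 3-month deletion oocytes had 5.71, 7.35 and 5.62 FPKM against 0.657, 1.39 and 1.21 FPKM. The deletion libraries were the higher at every stage, by log2 fold changes of 1.62, 1.80, 1.41 and 1.05 (SE 0.23 to 0.25, adjusted p at most 0.0011). Among GV oocytes Slc39a5 reached 5 FPKM in deletion libraries alone. Its place among the members may follow from them, so its GV rises are a description. Slc30a2, which exports zinc into vesicles, had 0.671, 0.508 and 0.406 FPKM in 3-week deletion oocytes against 6.02, 4.31 and 3.69 FPKM in wild type, and 0.436, 0.52 and 0.563 FPKM in 3-month deletion oocytes against 5.23, 4.79 and 4.76 FPKM. The groups did not overlap in either model (log2 fold changes -1.87 and -1.98, adjusted p = 2.6e-05 and 5.39e-06). In zygotes it was below 0.7 FPKM in both groups.

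Slc39a10, with Slc39a6 a zinc importer of the oocyte, had 35.7, 40.6 and 40 FPKM in 3-week deletion oocytes against 49.6, 49.7 and 49 FPKM in wild type. At 3 months it had 33.1, 40.9 and 40.7 FPKM in the deletion against 70.2, 69.6 and 68.1 FPKM. The fall was the deeper in the 3-month model (log2 fold changes -0.34 and -0.85, difference -0.50, adjusted p = 0.0161), and wild-type oocytes were themselves higher at 3 months, by 0.48 (adjusted p = 0.00121). It was lower again in deletion zygotes, at 101, 105 and 101 FPKM against 125, 143 and 130.1 FPKM, and higher in deletion 2-cell embryos, at 54, 55.3 and 58.5 FPKM against 33.8 and 36.2 FPKM. Slc39a6 overlapped between the groups in both GV models, with 133, 137 and 123 FPKM in 3-week deletion oocytes against 121, 131 and 125 FPKM. In zygotes it had 48.9, 69.7 and 47.3 FPKM in the deletion against 17.4, 15 and 20 FPKM (log2 fold change 1.59, adjusted p = 2.22e-09).

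The secretory pathway zinc transporters Slc30a4 and Slc30a5 also separated in zygotes. Slc30a5 had 27.8, 26.5 and 27.6 FPKM in deletion zygotes against 6.15, 7.68 and 5.45 FPKM in wild type (log2 fold change 1.94 ± 0.11 SE, adjusted p = 1.76e-11), while 2-cell embryos had 5.63, 5.4 and 7.31 FPKM in the deletion against 10.2 and 9.77 FPKM. Slc30a4 had 22.2, 22.7 and 22.2 FPKM in deletion zygotes against 4.87, 6.36 and 4.91 FPKM, and stayed higher in deletion 2-cell embryos, at 6.22, 4.23 and 7.8 FPKM against 0.987 and 1.3 FPKM. Slc30a3, the metal carrier with the highest level, had 183, 160.0 and 173 FPKM in 3-week deletion oocytes against 232, 235 and 229 FPKM in wild type, which did not overlap but was not called (adjusted p = 0.123). It was called lower in deletion zygotes, at 26.9, 22.8 and 20.1 FPKM against 56.7, 30.3 and 48.9 FPKM.

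Slc39a8, an importer of zinc and manganese, stood out in wild-type 3-week oocytes. It had 0.193, 0.331 and 0.298 FPKM in 3-week deletion oocytes against 5.91, 7.23 and 4.48 FPKM in wild type. In the 17 libraries of the other 6 groups its highest value was 0.216 FPKM. Because this group alone brought it past the level limit, these values are a description. The magnesium carrier Slc41a1 was higher by 0.47, 0.46, 0.54 and 0.42 on the log2 scale, and the copper transporter Slc31a2 had 11.8, 9.26 and 10.3 FPKM in deletion 2-cell embryos against 4.48 and 1.92 FPKM in wild type.

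**Figure D2:**
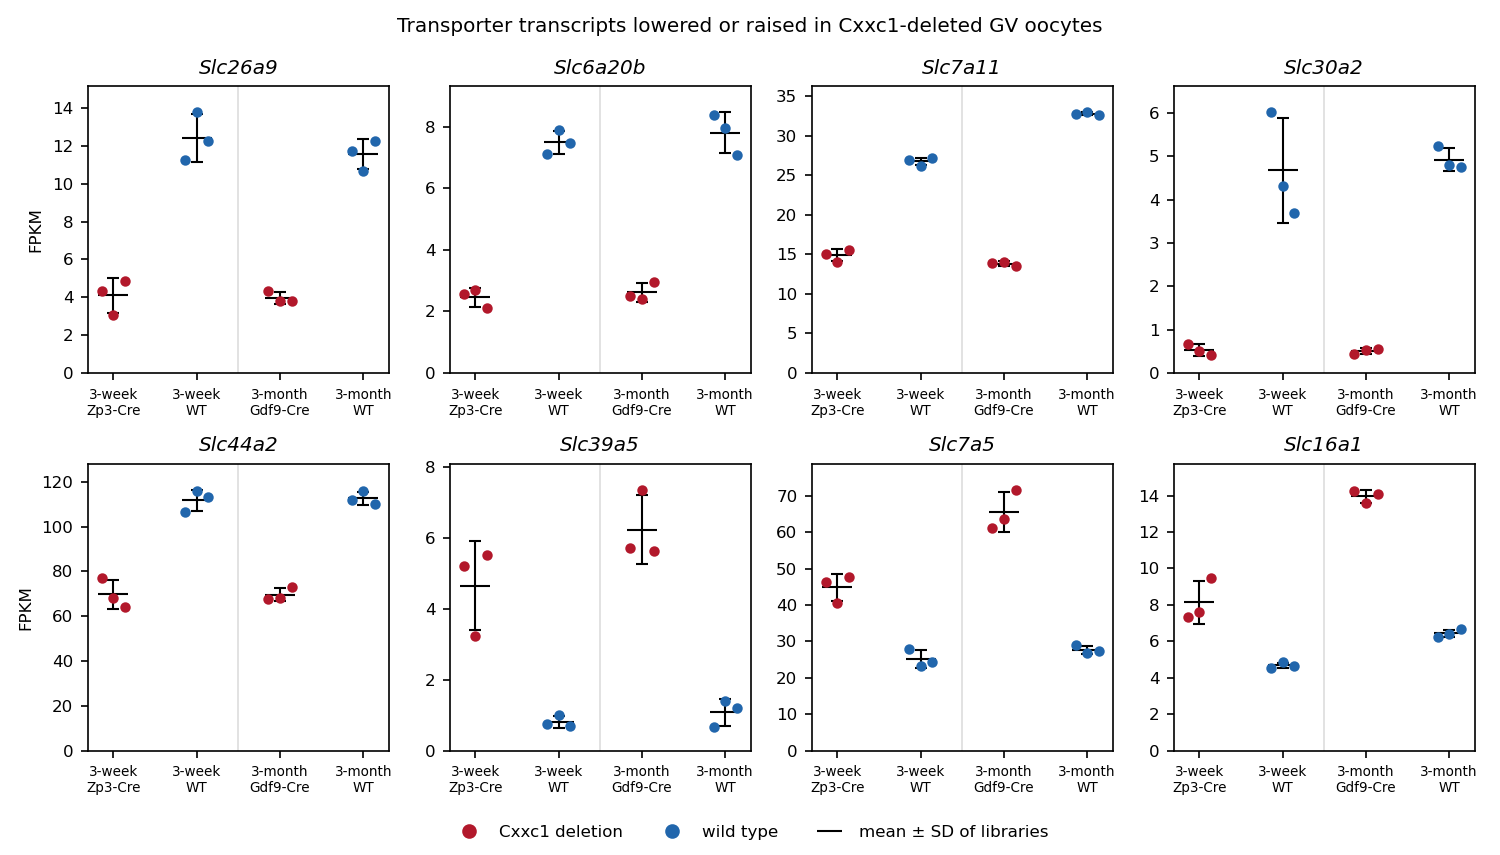
FPKM (y axes, linear) of 8 members in each GV oocyte library, with deletion libraries in red and wild-type libraries in blue, and black marks for mean ± SD (n = 3). The 5 falling members are Slc26a9, Slc6a20b, Slc7a11, Slc30a2 and Slc44a2, the 3 rising ones are Slc39a5, Slc7a5 and Slc16a1, and no deletion library overlaps its wild-type group in any panel. All but Slc30a2 and Slc44a2 were named by a rule that required separate groups in a GV comparison, so that separation is a description.

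Carriers of ions and protons leaned to lower levels in deletion oocytes, with 6 of 18 lower and 0 higher at 3 weeks and 7 lower and 1 higher at 3 months, beside 11.3% lower and 18.3% higher, and 15.2% lower and 34.2% higher, of all tested genes. Of genes at the level limit 13.5% and 18.3% were lower. Both other scalings gave 0 higher in either model and 7 to 11 lower. They also called more of all tested genes lower, 1863 or 1872 at 3 weeks and 3105 or 3236 at 3 months. The deposited values called 1557 and 2100 lower. Slc26a9, an epithelial chloride channel and anion carrier, had 4.36, 3.07 and 4.87 FPKM in 3-week deletion oocytes against 11.3, 13.8 and 12.3 FPKM in wild type. At 3 months it had 4.33, 3.81 and 3.79 FPKM against 11.7, 10.7 and 12.3 FPKM, and in zygotes 4.99, 4.69 and 4.57 FPKM against 13.5, 15.9 and 16.7 FPKM. The deletion libraries at these stages lay between 3.07 and 4.99 FPKM, and the log2 fold changes were -1.41, -1.34 and -1.51 (SE 0.13 each, adjusted p at most 1.7e-07). In 2-cell embryos it had 3.88, 3.08 and 3.75 FPKM in the deletion against 6.34 and 6.35 FPKM.

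The sodium-bicarbonate cotransporter Slc4a7 had 1.93, 2.31 and 1.71 FPKM in 3-week deletion oocytes against 3.78, 3.39 and 3.48 FPKM, and log2 fold changes of -0.61, -1.26 and -0.66 in 3-week oocytes, 3-month oocytes and zygotes. The chloride-bicarbonate exchanger Slc4a2 was not called in either GV model (-0.42 and -0.37, adjusted p = 0.061 and 0.0689), lower in deletion zygotes (-0.71) and higher in deletion 2-cell embryos (0.85). Slc26a6, another anion exchanger, was called higher by 0.40 in deletion zygotes, where the groups overlapped, and by 1.19 in deletion 2-cell embryos, where they did not. Slc12a9, with the level in GV oocytes highest of its cotransporter family, overlapped in both GV models and had 16, 15 and 20.8 FPKM in deletion 2-cell embryos against 5.63 and 9.87 FPKM.

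Slc45a3, a proton-coupled sugar carrier, had the highest level of any member. It had 682, 608 and 728 FPKM in 3-week deletion oocytes against 909, 901 and 903 FPKM in wild type, and 693, 716 and 743 FPKM in 3-month deletion oocytes against 904, 896 and 912 FPKM. Zygotes had 986, 904 and 1017 FPKM in the deletion against 1361, 1522 and 1251 FPKM. No deletion library reached its wild-type group at these stages (log2 fold changes -0.43, -0.33 and -0.50, adjusted p = 0.0175, 0.0406 and 0.00325). In 2-cell embryos it had 563, 572 and 484 FPKM in the deletion against 229 and 385 FPKM (0.85, adjusted p = 3.47e-05).

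Slc16a1, the monocarboxylate carrier that takes up pyruvate and lactate, had 7.32, 7.6 and 9.49 FPKM in 3-week deletion oocytes against 4.56, 4.84 and 4.64 FPKM in wild type. At 3 months it had 14.3, 13.6 and 14.1 FPKM against 6.25, 6.4 and 6.65 FPKM, and in zygotes 19.6, 19 and 19.7 FPKM against 6.08, 4.54 and 4.94 FPKM. It was higher in every deletion library of these stages (log2 fold changes 0.68, 1.01 and 1.73), and overlapped in 2-cell embryos, where wild-type embryos had also reached 14.4 and 13 FPKM. Of the glucose carriers, Slc2a1 was called in 2-cell embryos and in no other deletion comparison (10.5, 10.3 and 13.9 FPKM in the deletion against 7.29 and 7.75 FPKM), and Slc2a3 there as well, in the other direction (6.6, 5.65 and 7.17 FPKM against 10.7 and 8.91 FPKM). Slc2a12, a further glucose carrier, was lower in both GV models (log2 fold changes -0.93 and -0.77). The aromatic amino acid carrier Slc16a10, of the monocarboxylate family, was higher by 0.33 in 3-week deletion oocytes and 0.42 in deletion 2-cell embryos. Slc5a12, a monocarboxylate carrier, had 4.13, 3.89 and 3.77 FPKM in deletion 2-cell embryos against 0.678 and 1.52 FPKM.

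The class of vitamin, choline and phosphate carriers had 8 of 11 members higher and 2 lower in deletion zygotes, beside 35.3% higher and 11.4% lower of all tested genes. Both other scalings gave 7 higher and 2 lower. Of all 13776 tested genes, median-of-ratios scaling called 2804 higher and 4020 lower, and quantile normalization 2817 and 3498. Classes followed family numbers, so this one leaves out Slc5a6, a carrier of biotin and pantothenate counted with the sugar and monocarboxylate carriers. Slc19a1, the reduced folate carrier, had 5.14, 3.89 and 5.43 FPKM in deletion zygotes against 0.36, 0.338 and 0.488 FPKM in wild type (log2 fold change 2.05 ± 0.26 SE, adjusted p = 1.84e-06). Slc23a2, the vitamin C carrier, had 240.2, 239 and 212 FPKM in deletion zygotes against 95, 125 and 99.4 FPKM, and 139, 129 and 141 FPKM in 3-week deletion oocytes against 94.8, 93.6 and 98.1 FPKM. Both were clear of overlap, whereas the 3-month values of Slc23a2 overlapped. The riboflavin carrier Slc52a2 had 5.24, 5.76 and 3.28 FPKM in deletion zygotes against 1.63, 1.04 and 2.14 FPKM, and 5.2, 3.81 and 5.23 FPKM in deletion 2-cell embryos against 15.5 and 12.2 FPKM.

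The phosphate carriers parted from each other in zygotes. Slc20a1 was lower in the deletion, at 43.2, 42.5 and 40 FPKM against 57.7, 59.3 and 58 FPKM, and Slc20a2 higher, at 13.8, 13.3 and 9.29 FPKM against 5.24, 6.26 and 4.06 FPKM. In 2-cell embryos both were higher in the deletion, by 0.77 and 1.39 on the log2 scale. Slc44a2, a choline carrier, was lower in 3-week and 3-month deletion oocytes (77.1, 67.9 and 64.2 FPKM against 106, 116 and 113 FPKM, and 67.8, 68 and 72.8 FPKM against 112, 116 and 110.3 FPKM). Its family member Slc44a3 had 5.34, 4.61 and 5.03 FPKM in Gdf9-Cre oocytes against 1.31, 1.13 and 1.72 FPKM, a description since no other group reached 5 FPKM. Slc23a3 had 14.1, 9.81 and 21 FPKM in 3-week deletion oocytes against 5.56, 6.24 and 6.04 FPKM, whereas 3-month oocytes had 16.1, 15 and 17.2 FPKM in the deletion and 15.9, 15.8 and 16.7 FPKM in wild type. The wild-type 3-week group was thus the low one of the 4 GV groups.

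Of 17 carriers of nucleosides and nucleotide sugars, 10 were higher and 2 lower in deletion zygotes, beside 35.3% higher and 11.4% lower of all tested genes. The count became 5 and 5 or 5 and 4 under the other scalings. The calls over all tested genes moved too, from 4860 higher and 1571 lower with the deposited values. Median-of-ratios scaling called 2804 higher and 4020 lower, and quantile normalization 2817 and 3498. Slc35b1, which exchanges ATP and ADP across the endoplasmic reticulum membrane, had 15.7, 19.9 and 18.2 FPKM in deletion zygotes against 1.14, 1.44 and 1.72 FPKM in wild type. In 3-month oocytes it had 40.4, 39.3 and 42.3 FPKM in the deletion against 21.5, 23.7 and 21.2 FPKM. The zygote groups were 12.5-fold apart in mean FPKM (log2 fold change 2.96 ± 0.14 SE, adjusted p = 1.04e-12), and the 2-cell groups overlapped. Slc35b3, a carrier of the sulfate donor PAPS, had 6.08, 4.44 and 3.66 FPKM in deletion zygotes against 0.428, 0.598 and 0.87 FPKM. Slc35b4, a carrier of UDP sugars, was higher in deletion zygotes and 2-cell embryos by 0.88 and 1.15 on the log2 scale, and in 3-month oocytes by 0.54.

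Slc35a1, which brings CMP-sialic acid into the Golgi, separated most in 2-cell embryos, with 12.1, 13.1 and 11.7 FPKM in the deletion against 1.68 and 1.94 FPKM in wild type (log2 fold change 2.24 ± 0.1 SE, adjusted p = 6.41e-13). Deletion zygotes had 23.7, 22.8 and 22.3 FPKM and wild-type zygotes 16.3, 20.5 and 18.9 FPKM. Slc35a5 and Slc35f6, family members without an assigned cargo here, were likewise higher in deletion 2-cell embryos, by 1.28 and 1.58 on the log2 scale. Slc35a4 had 37.6, 27.9 and 32.3 FPKM in 3-week deletion oocytes against 55.1, 55.6 and 48.9 FPKM, and 25.7, 26.6 and 27.2 FPKM in deletion zygotes against 54.9, 51 and 53.4 FPKM. Slc35e4 was the reverse, with 46.1, 42.3 and 51.4 FPKM in 3-week deletion oocytes against 26.1, 25.7 and 25.9 FPKM, and 46.2, 45.8 and 42.4 FPKM at 3 months against 26.1, 23.1 and 25.6 FPKM.

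**Figure D3:**
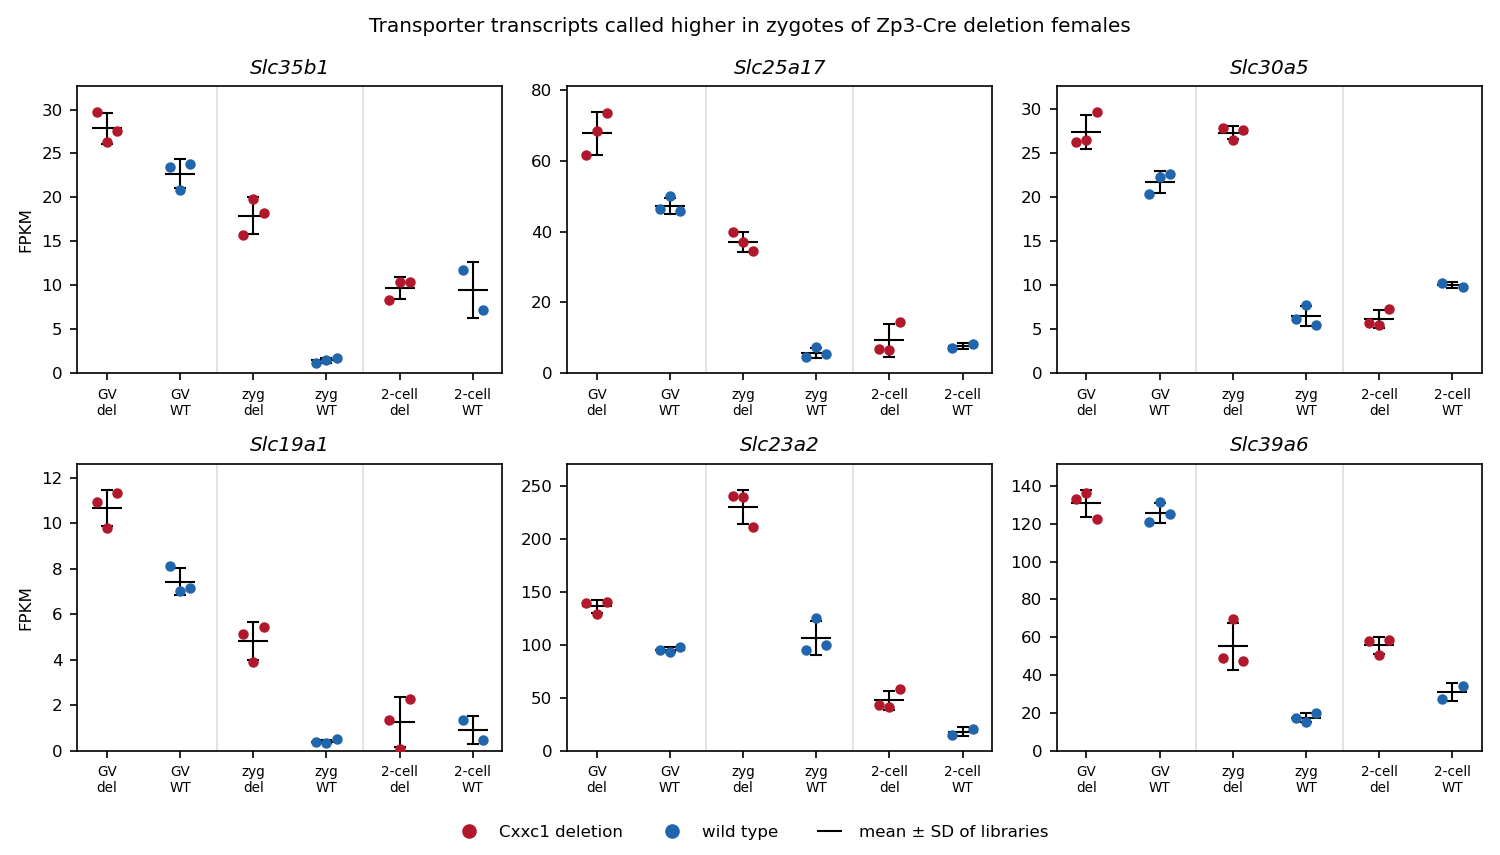
FPKM (y axes, linear) of 6 members in 3-week GV oocytes, zygotes and 2-cell embryos, with Zp3-Cre deletion libraries in red and wild-type libraries in blue, and black marks for mean ± SD (n = 3, wild-type 2-cell n = 2). In zygotes the deletion points of Slc35b1 lie at 15.7 to 19.9 FPKM and the wild-type points at 1.14 to 1.72 FPKM, and none of the 6 members overlaps there. All but Slc23a2 and Slc39a6 were named by a rule that required separate zygote groups, so that separation is a description.

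Of the organic ion, peptide and lipid carriers, Slc37a4, which moves glucose 6-phosphate into the endoplasmic reticulum, had 2.94, 2.41 and 2.55 FPKM in 3-week deletion oocytes against 0.607, 0.779 and 0.469 FPKM in wild type. Gdf9-Cre oocytes had 6.01, 6.59 and 3.39 FPKM against 0.702, 0.507 and 0.877 FPKM, and were the only group in which it reached 5 FPKM. Slc10a6, a carrier of sulfated steroids, had 34.6, 41.6 and 45 FPKM in 3-month deletion oocytes against 21.6, 19.3 and 21 FPKM, and in 2-cell embryos 6.31, 5.61 and 5.66 FPKM in the deletion against 16.4 and 20.5 FPKM. The vesicular monoamine carrier Slc18a2 had 5.32, 5.34 and 5.35 FPKM in 3-week deletion oocytes against 9.28, 10 and 10.1 FPKM, and 6.26, 7.45 and 5.53 FPKM in deletion zygotes against 12.7, 13.7 and 13.9 FPKM. Its 3-month groups overlapped. The lysosomal peptide carrier Slc15a4 was higher by 0.76 in deletion zygotes and fell by 0.38 in deletion 2-cell embryos. Members that carry a Slc symbol without being transporters included Slc7a6os, with 137, 138 and 132 FPKM in 3-month deletion oocytes against 94.5, 81.4 and 90.9 FPKM. Slc4a1ap was higher by 0.34 in the same comparison. Strandedness of the libraries is not given in the sources used here, so reads of these genes and of overlapping neighbours cannot be told apart.

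The 30 mitochondrial family members had 3 higher and 3 lower in 3-week deletion oocytes, 14 and 2 in 3-month oocytes, 10 and 4 in zygotes, and 13 and 10 in 2-cell embryos. Median-of-ratios scaling gave 1 and 3, 8 and 4, 6 and 14, and 9 and 10, and quantile normalization gave 2 and 3, 9 and 5, 7 and 12, and 14 and 10. With the deposited values 18.3% of all tested genes were higher and 11.3% lower, 34.2% and 15.2%, 35.3% and 11.4%, and 37.1% and 29.4% in the same comparisons. Of all 13776 tested genes, median-of-ratios scaling called 1547 and 1863, 2897 and 3105, 2804 and 4020, and 4152 and 4867. Quantile normalization called 1741 and 1872, 2822 and 3236, 2817 and 3498, and 5207 and 4079. The summed level of the 30 genes was 888 to 906 FPKM in Gdf9-Cre oocytes against 705 to 716 FPKM in wild type, and 541 to 586 FPKM in deletion zygotes against 419 to 456 FPKM. In bulk samples fewer cells of a type and less RNA per cell cannot be told apart.

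The ADP/ATP carriers Slc25a4, Slc25a5 and the germ cell form Slc25a31 exchange cytosolic ADP for mitochondrial ATP. Slc25a4 had 69.6, 70.9 and 65.4 FPKM in 3-week deletion oocytes against 43.1, 43 and 44.5 FPKM in wild type, and 82.9, 85.3 and 69.6 FPKM at 3 months against 36.9, 42.6 and 40.4 FPKM. In zygotes it had 29.4, 34.1 and 22 FPKM in the deletion against 2.04, 1.15 and 2.95 FPKM, and in 2-cell embryos 32.6, 35.9 and 48.3 FPKM against 26.4 and 18.9 FPKM. Deletion libraries were higher throughout, with log2 fold changes of 0.64, 0.97, 3.30 and 0.75 (SE 0.19 to 0.21, adjusted p = 0.0142, 0.000319, 2.3e-11 and 0.00383), and the zygote effect exceeded the 3-week oocyte effect by 2.65 ± 0.27 (adjusted p = 2.38e-07). The zygote means were 13.9-fold apart.

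Slc25a5 had 44.9, 70 and 56.4 FPKM in deletion zygotes against 19.1, 15.1 and 16.6 FPKM in wild type, and 73.9, 87.6 and 73.9 FPKM in deletion 2-cell embryos against 30.8 and 29.4 FPKM. Slc25a31 had 21.2, 22.2 and 24.9 FPKM in deletion zygotes against 8.03, 11.2 and 7.62 FPKM, and 9.13, 10.2 and 12.5 FPKM in deletion 2-cell embryos against 4.72 and 2.66 FPKM. Both were also called higher in 3-month oocytes, by 0.65 and 0.50 on the log2 scale, and not at 3 weeks (0.27 and 0.22, adjusted p = 0.116 and 0.305). The difference between the GV models was itself not called for Slc25a4, Slc25a5 or Slc25a31 (adjusted p = 0.554, 0.23 and 0.518).

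**Figure D4:**
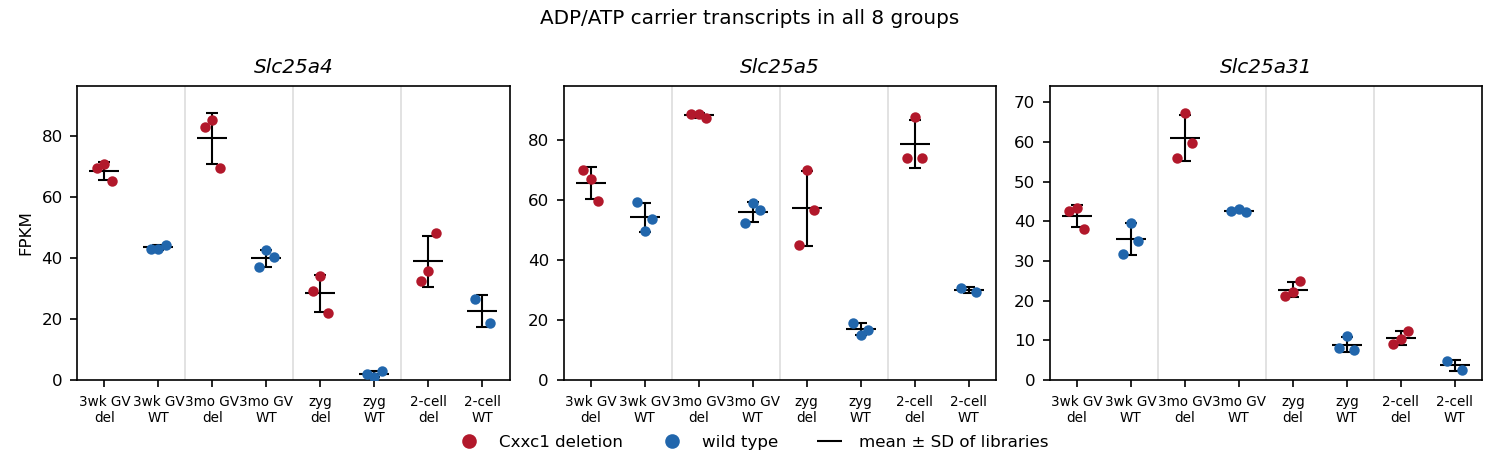
FPKM (y axes, linear) of the ADP/ATP carrier genes Slc25a4, Slc25a5 and Slc25a31 in all 23 libraries of the 8 groups, with deletion libraries in red and wild-type libraries in blue, and black marks for mean ± SD (n = 3, wild-type 2-cell n = 2). In zygotes the Slc25a4 points lie at 22 to 34.1 FPKM in the deletion and at 1.15 to 2.95 FPKM in wild type.

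Slc25a17, a carrier of the family that lies in peroxisomes, had 40, 37 and 34.4 FPKM in deletion zygotes against 4.54, 7.33 and 5.36 FPKM in wild type (log2 fold change 2.52 ± 0.19 SE, adjusted p = 1.9e-09). In 3-month oocytes it had 89.1, 82.5 and 89.5 FPKM in the deletion against 46.2, 43.4 and 44 FPKM, and the 2-cell groups overlapped. The glutathione carrier Slc25a39 had 32.1, 33.5 and 33.8 FPKM in deletion zygotes against 14.2, 11.9 and 11.4 FPKM. The carnitine-acylcarnitine carrier Slc25a20 had 18.2, 15.3 and 14.4 FPKM in 3-month deletion oocytes against 9.75, 6.39 and 6.28 FPKM, and the phosphate carrier Slc25a3 had 45.4, 38.9 and 40 FPKM against 24, 24.9 and 20.3 FPKM. Both were called at that age, with log2 fold changes of 1.02 for Slc25a20 and 0.82 for Slc25a3, and neither at 3 weeks (0.28 and 0.34, adjusted p = 0.26 and 0.136). The aspartate-glutamate carriers Slc25a12 and Slc25a13 had log2 fold changes of 1.07 and 1.17 in deletion 2-cell embryos.

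Slc25a16 was the mitochondrial family member lower at every stage, with 5.05, 6.1 and 5.16 FPKM in 3-week deletion oocytes against 9.79, 10.8 and 8.16 FPKM in wild type. At 3 months it had 3.54, 4.11 and 4.39 FPKM in the deletion against 13.4, 10.8 and 13.8 FPKM, and in zygotes 16.8, 15.2 and 14.8 FPKM against 27.5, 36.2 and 33.8 FPKM. No deletion library overlapped its control, and the 3-month effect was the deeper of the GV effects (-0.71 and -1.44, difference -0.73, adjusted p = 0.0189). The call of that difference was lost without wild-type 3-week replicate 3, Zp3-Cre 3-week replicate 2, wild-type 3-month replicates 1 or 3, or Gdf9-Cre replicate 1 (adjusted p up to 0.0548). The folate and FAD carrier Slc25a32 was lower in 3-month deletion oocytes (-0.74) and the S-adenosylmethionine carrier Slc25a26 in 3-week ones (-0.41, adjusted p = 0.0346, up to 0.13 and not called without replicate 1 or 2 of either group). Slc25a51, the mitochondrial NAD carrier, had 4.93, 4.92 and 5 FPKM in 3-week deletion oocytes against 6.29, 6.18 and 6.83 FPKM, and 8.15, 7.68 and 8.37 FPKM in 3-month deletion oocytes against 6.66, 5.84 and 5.44 FPKM. The 3-week call was lost without any of the 6 libraries of that comparison (adjusted p up to 0.124).

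The ornithine carrier Slc25a15 had 81.4, 84.7 and 71.1 FPKM in deletion 2-cell embryos against 34.4 and 40.4 FPKM in wild type, and was the reverse in zygotes, at 88.9, 88 and 91.7 FPKM against 109.9, 114 and 104 FPKM. Slc25a38, a glycine carrier of haem synthesis, was higher by 0.50 and 0.64 in the 3-week and 3-month models, the first not called under median-of-ratios scaling (adjusted p = 0.0809), and fell by 0.74 in deletion 2-cell embryos. The choline carrier Slc25a48 had the highest level of the family in GV oocytes, at 149, 131 and 129 FPKM in 3-week deletion oocytes against 144, 152 and 141 FPKM in wild type, which overlapped. It was higher in deletion zygotes and 2-cell embryos, by 0.62 and 0.81. Slc25a14 was called higher in 3-week oocytes at an adjusted p of 0.0448 and lost that call under 11 of 12 alternatives. The citrate carrier Slc25a1 was called higher in deletion 2-cell embryos (5.32, 2.35 and 9.63 FPKM against 2.57 and 2.32 FPKM) and not without replicate 3. The glutathione carrier Slc25a40 was higher there too, at 3.27, 5.23 and 3.66 FPKM against 1.19 and 2.92 FPKM.

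In wild-type 2-cell embryos a set of carriers appeared that the deletion embryos held at low levels. Of the 13 members that reached 5 FPKM in 1 group only, 10 did so in this group, namely Slc19a3, Slc1a5, Slc25a33, Slc25a36, Slc27a4, Slc29a2, Slc35e3, Slc39a4, Slc43a2 and Slc4a11. Their highest value in any other library was 3.83 FPKM, so that a difference from deletion embryos followed from their selection and the values are a description. The thiamine carrier Slc19a3 had 1.42, 2.44 and 1.63 FPKM in deletion 2-cell embryos against 48.1 and 62 FPKM in wild type. The zinc importer Slc39a4 had 0.422, 0.451 and 0.744 FPKM against 15.2 and 29.6 FPKM. The glutamine carrier Slc1a5 had 0.669, 0.429 and 3.08 FPKM against 16.5 and 27.4 FPKM, its highest deletion value being in replicate 3. Slc4a11, a membrane carrier of the bicarbonate family, had 0.114, 0.244 and 0.223 FPKM against 6.63 and 13.2 FPKM, and Slc35e3 had 0.73, 0.502 and 1.38 FPKM against 15 and 16.1 FPKM. The pyrimidine nucleotide carrier Slc25a36 had 0.837, 1.02 and 1.99 FPKM against 12.5 and 12.1 FPKM. Mean FPKM in wild type was 2.51-fold to 51.3-fold that in the deletion over the 10 genes.

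The upstream stretch of Slc19a3 is shown as the member of this set with the highest wild-type level, from the same source and with 8 CG in capitals.
Slc19a3, chr1:83038449-83038698, minus strand: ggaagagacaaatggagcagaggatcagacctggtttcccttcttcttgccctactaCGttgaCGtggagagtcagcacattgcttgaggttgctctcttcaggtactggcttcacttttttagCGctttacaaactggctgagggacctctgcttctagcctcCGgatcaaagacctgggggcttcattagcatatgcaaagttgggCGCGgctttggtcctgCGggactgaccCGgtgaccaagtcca

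Of the members expressed in more groups, those below were tested and were picked with their separation in 2-cell embryos known. Slc5a6, the carrier of biotin and pantothenate, had 2.49, 3.04 and 3.74 FPKM in deletion 2-cell embryos against 44.4 and 57.7 FPKM in wild type (log2 fold change -3.67 ± 0.19 SE, adjusted p = 4.2e-12). In oocytes it was the reverse, with 6.63, 4.46 and 6.5 FPKM in 3-week deletion oocytes against 3.85, 2.79 and 3.54 FPKM, and 9.66, 8.59 and 10.1 FPKM at 3 months against 3.42, 3.66 and 2.53 FPKM. The sodium-potassium-chloride cotransporter Slc12a2 had 4.14, 3.47 and 3.87 FPKM in deletion 2-cell embryos against 37.3 and 40 FPKM (-3.04 ± 0.13, adjusted p = 3.03e-13). The mitochondrial iron carrier Slc25a28 had 6.01, 6.44 and 8.66 FPKM against 65.5 and 57 FPKM (-2.97 ± 0.15, adjusted p = 3.75e-12). The ATP-magnesium and phosphate carrier Slc25a25 had 3.3, 4.18 and 4.7 FPKM against 60.5 and 44.5 FPKM (-3.40 ± 0.15, adjusted p = 3.87e-13). In each of these the wild-type libraries lay far above all deletion libraries.

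Smaller separations were seen for the oxoglutarate carrier Slc25a11, at 2.57, 2.31 and 4.64 FPKM in deletion 2-cell embryos against 12.6 and 16.4 FPKM. The branched-chain amino acid carrier Slc25a44 had 24.6, 26.4 and 24.2 FPKM against 88 and 99.4 FPKM. All the wild-type values again lay above the deletion values. In the same libraries the 6 markers of genome-activated 2-cell embryos summed to 15.8 to 23.1 FPKM in the deletion and 123 to 166 FPKM in wild type, and the 10 oocyte markers to 3367 to 3642 FPKM in the deletion and 981 to 1167 FPKM in wild type. The part of these in the carrier values was not tested. Without replicate 3, deletion 2-cell embryos had 55 members higher and 46 lower, and the share of all tested genes without it is not given.

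**Figure D5:**
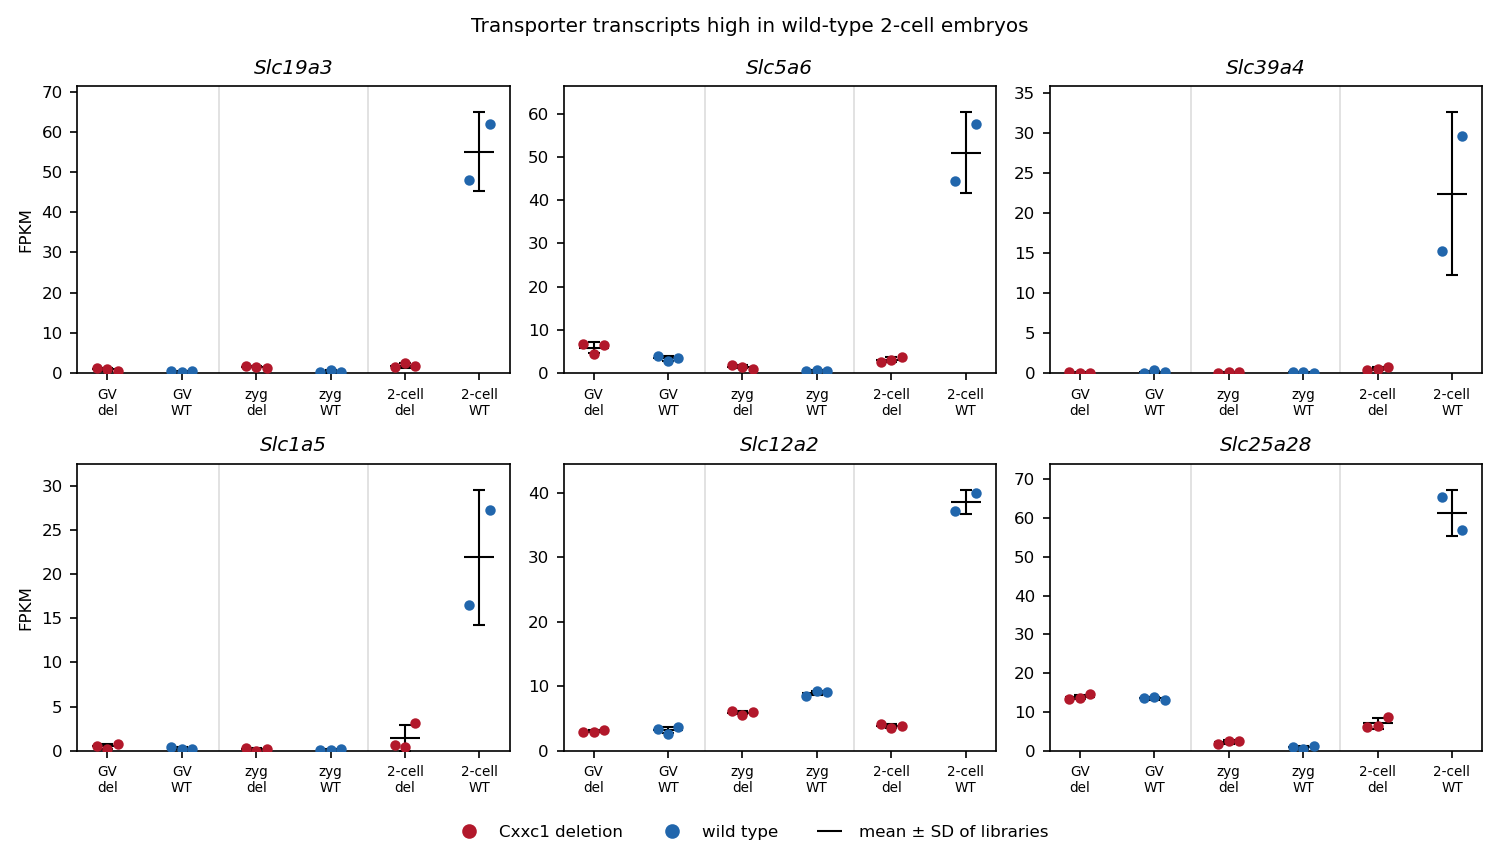
FPKM (y axes, linear) of 6 members in 3-week GV oocytes, zygotes and 2-cell embryos, with Zp3-Cre deletion libraries in red and wild-type libraries in blue, and black marks for mean ± SD (n = 3, wild-type 2-cell n = 2). In 2-cell embryos the Slc5a6 points lie at 2.49 to 3.74 FPKM in the deletion and at 44.4 and 57.7 FPKM in wild type, and none of the 6 members overlaps there. That lack of overlap is a description. Slc19a3, Slc39a4 and Slc1a5 were members through wild-type 2-cell embryos alone, and the others were picked with their separation known.

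The wild-type groups give the course these changes were set against. Between the ages, 3-month and 3-week GV oocytes differed in 8 members, 4 higher and 4 lower, or 5.63%, beside 3.95% of all tested genes (2.25% higher, 1.7% lower) and 4.37% of genes at the level limit (2.96% and 1.4%). Slc39a8, a member through wild-type 3-week oocytes alone, had to be lower here. Over the 129 members at 5 FPKM in 2 or more groups, 4 were higher and 3 lower. The glucose carrier Slc2a3 had 0.0854, 0.0412 and 0.0307 FPKM at 3 months against 3.72, 3.81 and 3.99 FPKM at 3 weeks (log2 fold change -2.20, adjusted p = 6.31e-10), and the deletion groups had the same contrast, at 0, 0.0954 and 0.253 FPKM in Gdf9-Cre oocytes and 2.81, 3.3 and 3.53 FPKM in Zp3-Cre oocytes. Slc23a3 was higher at 3 months by 1.30 and Slc16a10 by 0.60. Slc6a7 fell by 0.50. Slc20a1 (0.42, adjusted p = 0.0437) and Slc4a1ap (-0.46, adjusted p = 0.0453) lost their calls without any of the 6 libraries.

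Wild-type zygotes compared with 3-week GV oocytes had 33 members higher and 75 lower, or 76.1% called, beside 70.1% of all tested genes (19.4% higher, 50.7% lower) and 82.2% of genes at the level limit (24.4% and 57.7%). Slc39a8 had to be lower here as well, and over the 129 members in 2 or more groups 33 were higher and 71 lower. Slc25a4 fell to 2.04, 1.15 and 2.95 FPKM in wild-type zygotes, against 43.1, 43 and 44.5 FPKM in GV oocytes, the deepest fall of the members (log2 fold change -3.91, adjusted p = 3.02e-13). Slc4a1ap, Slc25a1, Slc35b3 and Slc10a6 followed, by -3.86, -3.78, -3.59 and -3.49. Rises were smaller, led by Slc35a5 (8.51, 9.05 and 8.99 FPKM in zygotes against 2.17, 1.38 and 2.47 FPKM), Slc25a16 (1.66), Slc16a10 (1.64) and Slc6a6 (1.48). Quantile normalization raised the median of all genes in this comparison by 0.55 and median-of-ratios scaling by 0.42.

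Wild-type 2-cell embryos compared with zygotes had 55 members higher and 52 lower, or 75.4% called, beside 68.5% of all tested genes (44.5% higher, 24% lower) and 78.1% of genes at the level limit (47.4% and 30.7%). The members through wild-type 2-cell embryos alone had to be higher here, and over the 129 members at 5 FPKM in 2 or more groups 44 were higher and 52 lower. Among these 129 the rises were led by Slc25a28 (5.10) and Slc5a6 (5.04) on the log2 scale. The falls were led by Slc6a20a, at 1.89 and 1.09 FPKM in 2-cell embryos against 21.7, 17.8 and 17 FPKM in zygotes (-3.00), and by Slc7a11 (-2.98), Slc31a2 (-2.82) and Slc35a1 (-2.80). These comparisons share libraries with the deletion comparisons, so their values are given side by side and not correlated.

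Tests of the difference between deletion effects gave 6 members between 3-month and 3-week GV oocytes, 2 upward and 4 downward, or 4.23%, beside 4.89% of all tested genes (3.2% upward, 1.68% downward) and 5.14% of genes at the level limit (2.97% and 2.17%). Between zygotes and 3-week oocytes 53 members differed, 45 upward and 8 downward, or 37.3%, beside 29.4% of all tested genes (22.4% and 7.01%) and 38% at the level limit (29.1% and 8.85%). Between 2-cell embryos and zygotes 83 differed, 37 upward and 46 downward, or 58.5%, beside 53.9% of all tested genes (21.5% and 32.4%) and 63.3% at the level limit (27.8% and 35.5%). For the 129 members at 5 FPKM in 2 or more groups the counts followed the same order. They were 1 upward and 4 downward, 44 and 7, and 37 and 37.

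Transporters outside the Slc families were counted too, beside the same shares of all tested genes with the deposited values (18.3% higher and 11.3% lower in 3-week deletion oocytes, 34.2% and 15.2% in 3-month oocytes, 35.3% and 11.4% in zygotes, 37.1% and 29.4% in 2-cell embryos). Those shares do not apply to the other scalings. In zygotes median-of-ratios scaling called 2804 of all 13776 tested genes higher and 4020 lower, and quantile normalization 2817 and 3498. Of 16 tested vacuolar proton pump genes, which acidify lysosomes, 7 were higher and 0 lower in 3-week deletion oocytes, 11 and 0 in 3-month oocytes, 8 and 1 in zygotes, and 8 and 3 in 2-cell embryos. Median-of-ratios scaling gave 5 and 0, 9 and 2, 7 and 6, and 5 and 4, and quantile normalization gave 7 and 0, 9 and 2, 7 and 4, and 7 and 3. Of 29 tested ABC transporters 5 were higher and 8 lower, 11 and 8, 16 and 5, and 13 and 9 in the same order, against 2 and 10, 8 and 12, 9 and 10, and 11 and 10 under median-of-ratios scaling, and 1 and 10, 5 and 13, 6 and 10, and 14 and 8 under quantile normalization. Of 6 genes of the mitochondrial pyruvate carrier and calcium uniporter 1 was higher and 1 lower, 2 and 2, 4 and 1, and 2 and 1. Of 7 tested organic anion Slco genes 1 was higher and 0 lower, 3 and 0, 1 and 1, and 4 and 2, of 6 sodium pump genes 1 and 0, 0 and 0, 3 and 0, and 1 and 0, of 4 tested aquaporins 2 and 0, 2 and 0, 0 and 0, and 0 and 2, and of 3 tested unnumbered mitochondrial carrier genes 1 and 0, 2 and 0, 1 and 0, and 1 and 1. In these 5 small lists the other scalings changed a count by at most 2 genes. Textbook oocyte carriers that did not reach the level included Slc38a2, Slc2a8, Slc16a3, Slc16a7, Slc7a6, Slc38a3, Slc30a9 and Slc29a1, with highest values of 7.26, 7.30, 3.97, 1.46, 2.18, 2.11, 4.54 and 2.39 FPKM in this order.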

How the data were processed

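RNA-seq was available for 23 libraries of mouse GV oocytes, zygotes and 2-cell embryos, as FPKM values per gene in a table deposited by the authors. The submitters' processing notes name CASAVA 1.4, TopHat2 2.0.12, Cufflinks 2.2.1, SAMtools and Bismark 0.7.6, and the builds mm10 and mm9, without their roles, while annotation and strandedness were not given in the sources used. No read counts were used, so absolute depth is unknown, and the steps between low values put relative depth between 1 and 2.92. FPKM divides by all mapped fragments, so a large change in a few genes moves the values of the others.

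The deposited FPKM values were taken as log2(FPKM + 1) and fitted in limma 3.58.1 (R 4.3.3), with 1 mean per group over all 8 groups, a mean-variance trend, 15 residual degrees of freedom and Benjamini-Hochberg adjustment over 13776 of 24506 genes, those with at least 1 FPKM in at least 2 libraries. Fold changes on this scale understate changes of low genes. Calls were made at an adjusted p below 0.05. Tables and plots used Python 3.11.15, pandas 2.3.3 and matplotlib 3.10.9, and the fit was tested on simulated data.

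Members named are textbook oocyte carriers, the 2 most abundant per class, the largest called rises and falls per comparison, and those at the level limit. In deletion comparisons the rises and falls were taken only among members with separate groups and a highest group mean of at least 5 FPKM. Their lack of overlap in that comparison therefore followed from the choice and is a description. Slc12a2, Slc41a1, Slc25a33, Slc27a4, Slc29a2 and Slc43a2 fall outside the naming rule and were chosen after their values were seen, and the alternatives were not run for them as named genes. A member that the naming rule picks is not reported here. Members, classes and lists were chosen with earlier results of these data known. Each class was assigned by family number, so the cargo of single members can differ from it. The labels do not say that replicates came from separate animals, so p-values reflect only how far these samples vary, and that variation may be technical. Reads of near-identical or overlapping genes may be split between them.

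Alternatives were a pseudocount of 0.1, no filter, median-of-ratios scaling, quantile normalization, a replicate block, fits of the 2 groups compared, and leaving out each library.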

Additional observations from a re-analysis of the deposited data

Results flagged for a closer look

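The deletion effect itself differed between conditions, by a limma test of the difference of log2 fold changes, for the following members. Each value is the first deletion effect minus the second, on the log2(FPKM + 1) scale.

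Between 3-month Gdf9-Cre and 3-week Zp3-Cre GV oocytes the difference was -1.10 for Slc1a1, -1.14 for Slc23a3, -0.73 for Slc25a16, 0.70 for Slc25a51, -0.50 for Slc39a10 and 2.44 for Slc39a8. Driver and age cannot be told apart here. The call for Slc1a1 was lost without 10 of the 12 libraries taken 1 at a time, Zp3-Cre and Gdf9-Cre replicate 3 being the exceptions (adjusted p up to 0.091), and that for Slc23a3 likewise without most of them (adjusted p up to 0.157). Slc39a8 reached 5 FPKM in wild-type 3-week oocytes alone and was a member through that group, so its differences here and below are a description. Slc1a1 reached 5 FPKM at 3 weeks in deletion libraries alone, so its difference is a description too.

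Between zygotes and 3-week GV oocytes the positive differences were 2.65 for Slc25a4, 2.67 for Slc35b1, 2.01 for Slc25a17, 1.96 for Slc35b3, 1.71 for Slc30a2 and 2.47 for Slc39a8. The zinc carriers Slc30a2 and Slc39a8 were low in zygotes of both groups, and their differences come from the oocyte effect. Negative differences were -0.60 for Slc20a1, -0.97 for Slc23a3, -0.62 for Slc25a25, -0.58 for Slc25a38, -0.70 for Slc36a1 and -1.09 for Slc37a4. With a pseudocount of 0.1 the calls for Slc23a3 and Slc37a4 were lost (adjusted p = 0.129 and 0.125 by limma). The Slc25a38 call was lost without replicates 2 or 3 of either 3-week group or replicates 1 or 2 of either zygote group (adjusted p up to 0.0942), and the Slc25a25 call without replicate 3 of either 3-week group (up to 0.0523).

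Between 2-cell embryos and zygotes the difference was -5.20 for Slc19a3, -4.28 for Slc5a6, -3.88 for Slc39a4, -3.77 for Slc25a28, -3.42 for Slc1a5 and -3.03 for Slc25a25. It was positive for Slc35a1 at 1.95, Slc35f6 at 1.61, Slc4a2 at 1.56, Slc7a11 at 1.45, Slc25a15 at 1.34 and Slc25a40 at 0.97, the last not called without wild-type 2-cell replicate 1 (adjusted p = 0.108). Slc19a3, Slc39a4 and Slc1a5 were members through wild-type 2-cell embryos alone, so their values are a description.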

How the results depend on the processing

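For named members, 138 results were recomputed under the alternatives that applied to each, which made 1730 pairs of a result and a setting. None reversed, 1643 kept their side of the threshold and 87 fell short of it, spread over 16 results, while 122 results had no change under any alternative run. The count of members whose deletion effect differed between 3-month and 3-week oocytes was 6, and 3 without wild-type 3-week replicate 3, wild-type 3-month replicate 3 or Gdf9-Cre replicate 1, and the cause was not tested. Leaving out each library gave 38 to 44 called members in 3-week oocytes, 62 to 65 in 3-month oocytes, 68 to 79 in zygotes, 86 to 101 in 2-cell embryos, 6 in the age comparison, 105 to 109 between wild-type zygotes and oocytes, and 103 to 110 between wild-type 2-cell embryos and zygotes. It gave 3 to 6, 43 to 53 and 74 to 88 for the differences of effects.

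Same-numbered replicates did not deviate together, with correlations between -0.0689 and 0.0576, so the numbers were not taken as pairs. With the replicate block the counts were 55, 76, 79 and 95 in the deletion comparisons, 8 for age, 109 and 107 for the wild-type stages, and 8, 54 and 84 for the differences. Depth is unknown in absolute terms and limits members near 1 FPKM most.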
